A study of Mus musculus with 69 samples.

Results

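The 8 genes described here, F3, F7, F10, Tfpi, Thbd, Plat, Plau and Plaur, belong to the systems that form fibrin clots and dissolve them. They were found through the transcript identifiers that the array's scanner output gives for its probes, and all 8 passed the intensity filter, with 14 probes among the 36469 probes kept and the 17639 genes tested. Levels were followed in whole lungs of 69 female C57BL/6 mice given 1 intratracheal instillation of titanium dioxide nanoparticles or of vehicle. The mice were 5 to 7 weeks old on arrival and had 1 to 3 weeks to settle before the instillation. NRCWE-001 was the unmodified particle and NRCWE-002 a surface-modified, positively charged form. Each was given at 18, 54 or 162 µg, and lungs were taken on day 1 or day 28. The vehicle animals are labelled H2O, and the design text describes the vehicle as water with 2% serum. Each of the 14 groups held 5 mice, except the day 28 vehicle group, which held 4.

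Each array compared 1 lung, labelled with Cy5, with a common Universal Mouse Reference RNA, labelled with Cy3, and no dyes were swapped, so the ratios themselves are open to dye bias. Values below are log2 ratios of lung over that reference, averaged as mean ± SD over mice. A ratio shows how one gene varied among lungs and does not rank one gene's abundance against another's. In whole lung, fewer cells of a type and less RNA per cell cannot be told apart. Of the probes, 61.4% to 87.8% were well above background on an array and 0 were saturated, and the tested markers of lung epithelium, endothelium and macrophages were well above background on all 69 arrays. The liver marker Alb was well above background on 62 arrays, Apoa1 on 18 and Ttr on 10. The arrays lay on 18 slides, and 4 of them stood apart, with a median correlation to the others between 0.852 and 0.896: replicate 2 of NRCWE-001 18 µg on day 1, and replicate 2 of NRCWE-002 at 18, 54 and 162 µg on day 28, the last 3 hybridised on the same slide. The main results that rest on these arrays are given with and without them.

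Blood coagulation outside vessels starts when tissue factor (F3), a transmembrane receptor, binds factor VII (F7) and the complex activates factor X (F10), which generates thrombin. Tissue factor pathway inhibitor (Tfpi) blocks these first steps, and thrombomodulin (Thbd), on the endothelial surface, binds thrombin and turns it towards the activation of the anticoagulant protein C. The fibrin that forms is removed by plasmin, which tissue-type (Plat) and urokinase-type (Plau) plasminogen activators make from plasminogen, and the urokinase receptor (Plaur) holds Plau at the cell surface. In the lung, fibrin is laid down in the air spaces during injury, and the balance of these activators and inhibitors is known to govern its clearance. Factors VII and X of plasma are made mainly in the liver, and macrophages are a known additional source.

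Promoter windows, 250 bases before to 50 bases after the annotated start, were taken from RefSeq for 5 of the 8 members (mouse build GRCm38.p6). F7 and F10 are neighbours on chromosome 8, and their windows are shown because their ratios ran most alike across the lungs. The windows of F3 and Plaur are shown because these members had the largest differences between the particles over the doses on day 28. The F7 window is chr8:13025784-13026083, the F10 window chr8:13037058-13037357, the F3 window chr3:121723287-121723586 and the Plaur window chr7:24462233-24462532, all on the plus strand. Capitals mark matches, on either strand, to AP-1 (TGANTCA), an NF-kB-like motif, the GC box (GGGCGG), a Kruppel-like motif (CCACACCC), a heat shock element (GAANNTTC) and the TATA box (TATAAA).
F7: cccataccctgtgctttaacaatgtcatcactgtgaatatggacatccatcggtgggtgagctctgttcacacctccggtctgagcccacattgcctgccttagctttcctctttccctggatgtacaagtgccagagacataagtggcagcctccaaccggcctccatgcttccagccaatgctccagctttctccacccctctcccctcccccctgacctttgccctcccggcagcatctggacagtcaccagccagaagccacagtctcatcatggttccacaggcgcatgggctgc
F10: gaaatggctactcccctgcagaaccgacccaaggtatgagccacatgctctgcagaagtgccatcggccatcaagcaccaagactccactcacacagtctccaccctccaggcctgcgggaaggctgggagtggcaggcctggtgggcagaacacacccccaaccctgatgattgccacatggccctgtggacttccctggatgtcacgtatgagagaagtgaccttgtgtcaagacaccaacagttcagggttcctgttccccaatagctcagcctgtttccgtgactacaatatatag
F3: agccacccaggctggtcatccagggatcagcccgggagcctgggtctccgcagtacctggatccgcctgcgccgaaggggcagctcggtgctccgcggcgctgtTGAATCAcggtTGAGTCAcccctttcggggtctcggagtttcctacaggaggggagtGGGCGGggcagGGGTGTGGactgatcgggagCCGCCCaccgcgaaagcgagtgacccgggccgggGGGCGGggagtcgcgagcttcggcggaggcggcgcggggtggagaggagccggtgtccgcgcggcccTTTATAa
Plaur: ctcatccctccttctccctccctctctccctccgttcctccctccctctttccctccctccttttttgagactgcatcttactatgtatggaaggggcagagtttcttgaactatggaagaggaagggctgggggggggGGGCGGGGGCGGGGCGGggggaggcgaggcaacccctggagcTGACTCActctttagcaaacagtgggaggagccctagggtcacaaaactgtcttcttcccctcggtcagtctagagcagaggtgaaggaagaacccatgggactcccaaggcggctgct
Neither the F7 nor the F10 window held a match to any of the 6 motifs. The F3 window held 2 AP-1 matches, 3 GC boxes, 1 Kruppel-like match and 1 match to the TATA box. That TATA box match lay on the minus strand at position 43, after the annotated start. The Plaur window held 1 AP-1 match and 3 adjoining GC boxes. Among the 32851 promoter windows of the same length, 7.81% held AP-1, 4.79% the NF-kB-like motif, 35.7% a GC box, 3.56% the Kruppel-like motif, 7.86% a heat shock element and 13.6% a TATA box. A match describes letters in the window and not a bound site.

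Against the vehicle of the same day, none of the 8 genes passed an adjusted p of 0.05 at any particle, dose or day (limma, Benjamini-Hochberg over all 17639 genes). That is 0 of 96 values, and the lowest adjusted p was 0.267, for F10 at 162 µg of NRCWE-002 on day 1. At an unadjusted p under 0.05 there were 7 of the 96 values, all higher in exposed lungs, a share of 7.29% beside 5.98% of all genes' values in the same comparisons. The contrasts that hold them had 7.08% (162 µg of NRCWE-001 on day 1), 8.93% (162 µg of NRCWE-002 on day 1), 8.16% and 8.63% (18 and 162 µg of NRCWE-001 on day 28) and 6.08% (18 µg of NRCWE-002 on day 28) of all genes at that level. The array itself did register responses: at 162 µg on day 1, 0.578% of genes passed the adjusted threshold with the unmodified and 0.595% with the charged particle, and on day 28 the shares were 0.0454% and 0.00567%. Of the other dose contrasts, 54 µg of NRCWE-002 on day 1 had 0.0624% and 18 µg of NRCWE-001 on day 28 had 0.193%, and the remaining 6 had 0. A test of any difference among the 3 doses and vehicle called 0 of 32 values, beside 0.697% and 0.822% of genes on day 1 and 0.476% and 0% on day 28 for NRCWE-001 and NRCWE-002. At an unadjusted p under 0.05 it held 2 members, F10 with NRCWE-002 on day 1 and Plaur with NRCWE-001 on day 28 (6.25% of values beside 7.26% of all genes' values, and 7.79% and 9.02% in those comparisons). The mean over doses against vehicle also called 0 of 32, with 1 at an unadjusted p under 0.05 (3.13% beside 6.22%), and with NRCWE-001 on day 28 it called 0.0283% of all genes, with 0 in the other 3 cases. The authors' table of LOWESS-normalised log2 ratios, which covers the same arrays, gave 0 of 96 called by the same limma test and 9 at an unadjusted p under 0.05. The standard errors of the 96 differences ran from 0.0945 for Tfpi to 0.294 for F7.

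**Figure D1:**
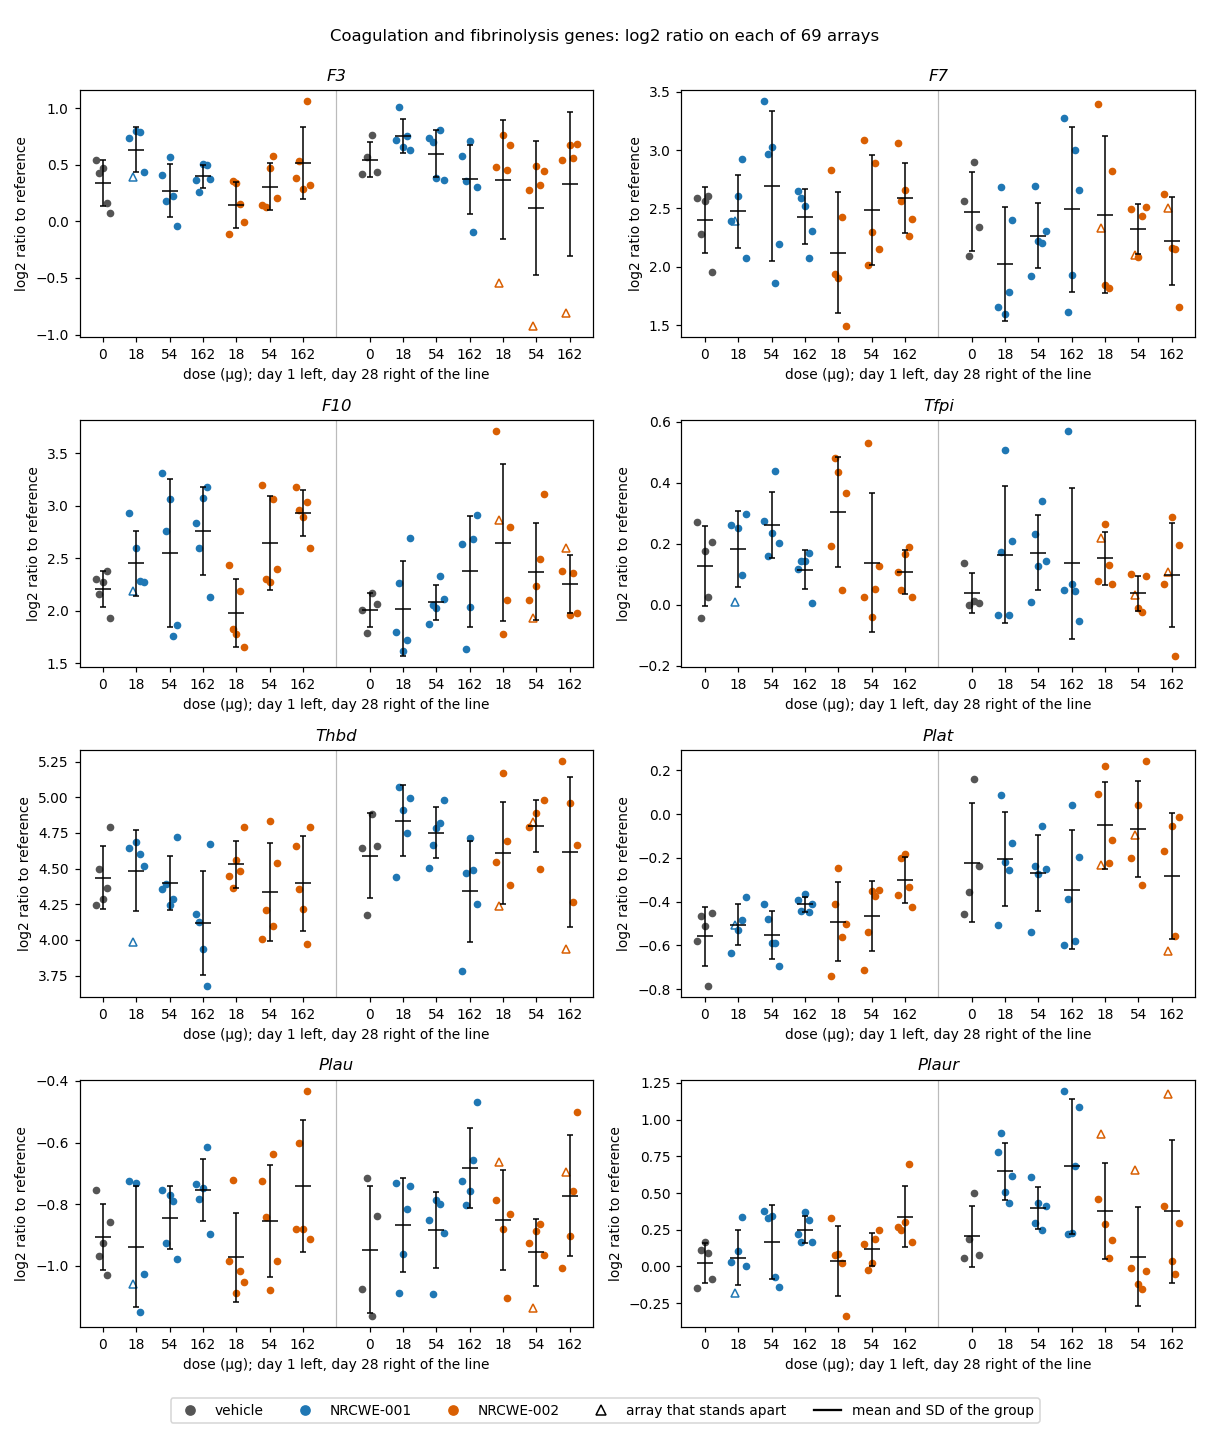
Log2 ratio of lung over reference RNA for each of the 8 genes (y axis) by dose in µg and day (x axis), 1 point per mouse coloured by treatment, bars for the group mean and SD, and triangles for arrays that stood apart. F10 on day 1 runs from a mean of 1.98 at 18 µg to 2.93 at 162 µg of NRCWE-002, while Tfpi, by the median of its 3 probes, stays between means of 0.04 and 0.30 over all 14 groups.

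F10, the zymogen of the protease that makes thrombin, had the largest differences from vehicle on day 1. The 5 vehicle lungs were at 1.94, 2.16, 2.28, 2.30 and 2.38 (2.21 ± 0.17). With 162 µg of NRCWE-002 the lungs were at 2.59, 2.89, 2.96, 3.04 and 3.18 (2.93 ± 0.22), all above the highest vehicle lung, as was so for 3.54% of all genes in that comparison. The difference was 0.72 on the log2 scale (SE 0.27, 1.65-fold with a 95% interval of 1.14 to 2.38, unadjusted p = 0.0084, limma adjusted p = 0.267). At 54 µg of this particle the lungs were at 2.27, 2.30, 2.40, 3.06 and 3.20, with 2 of them within the vehicle range and 1 just above it. At 18 µg they were at 1.65, 1.78, 1.83, 2.19 and 2.44, and the mean difference was -0.23. The means thus ran from below vehicle at the lowest dose to above it at the others, with differences of -0.23, 0.44 and 0.72, of which none passed the adjusted threshold.

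NRCWE-001 gave F10 differences of 0.25, 0.34 and 0.55 at 18, 54 and 162 µg on day 1. At 54 µg its lungs were at 1.76, 1.86, 2.76, 3.06 and 3.31, on both sides of vehicle. At 162 µg its lungs were at 2.13, 2.60, 2.84, 3.08 and 3.18, so 1 lung lay within the vehicle range and the groups overlapped. The fold was 1.47 with a 95% interval of 1.02 to 2.12 (unadjusted p = 0.041, limma adjusted p = 0.651). With slide as a fixed term the 162 µg difference was 0.68 for NRCWE-001 (limma adjusted p = 0.0997) and 0.66 for NRCWE-002 (limma adjusted p = 0.232). As a random block, slide gave 0.65 (limma adjusted p = 0.0934) and 0.68 (limma adjusted p = 0.108). On the slides that held both vehicle and the exposed group, F10 was higher in the exposed lungs on 2 of 2 slides for 162 µg of NRCWE-002, by 0.80 to 0.95, and on 3 of 3 slides for 162 µg of NRCWE-001, by 0.44 to 0.80. Tested neutrophil markers, 4 of a list of 5 (Ly6g was not tested), are given for the same lungs: their mean ratio was 3.08 ± 0.31 (2.72 to 3.41) with vehicle, 3.72 ± 0.58 (2.94 to 4.42) with 162 µg of NRCWE-001 and 3.60 ± 0.35 (3.04 to 3.97) with 162 µg of NRCWE-002, and 4 of 4 were higher in both, with 1 called for NRCWE-001 and 0 for NRCWE-002. The 4 tested macrophage markers of 5 had means of 2.15 ± 0.17, 2.07 ± 0.16 and 2.16 ± 0.16 in the same groups. The part of either cell type in the F10 values was not tested.

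**Figure D2:**
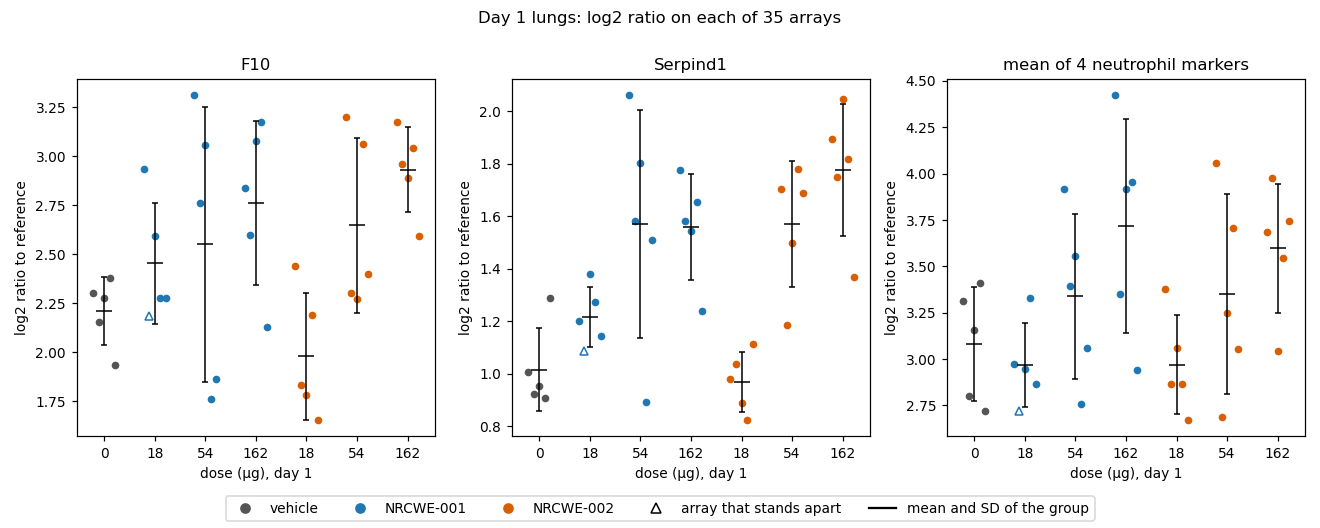
Day 1 log2 ratios of F10, of Serpind1 (heparin cofactor II) and of the mean of 4 neutrophil markers (y axes) against dose in µg, with vehicle at 0 (x axes), 1 point per mouse coloured by particle, and bars for the group mean and SD. All 5 lungs given 162 µg of NRCWE-002 sit above the highest vehicle lung for F10 (2.59 to 3.18 beside 2.38) and for Serpind1 (1.37 to 2.05 beside 1.29), as was so for 3.54% of all genes. The neutrophil marker means overlap vehicle.

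On day 28 the F10 vehicle lungs were at 1.79, 2.00, 2.07 and 2.17 (2.01 ± 0.16). The 18 µg NRCWE-002 lungs were at 1.78, 2.10, 2.80, 2.87 and 3.71 (2.65 ± 0.75), with 2 lungs within the vehicle range or below it and an SD above that of vehicle. The difference of 0.64 had an unadjusted p of 0.026 and a limma adjusted p of 0.80, it was 0.59 without the array that stood apart, from 0.38 (without replicate 1 of the exposed group) to 0.86 (without its replicate 3) with single arrays left out, and within the 2 slides that held both groups it ran from -0.29 to 1.71. No other day 28 group had an unadjusted p under 0.05 for F10.

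F7, the protease that tissue factor binds, was at 2.40 ± 0.28 with vehicle on day 1 and 2.47 ± 0.34 on day 28. Its differences from vehicle ranged from -0.45 to 0.29, with 95% intervals reaching from -1.04 to 0.85, so the data bound the F7 differences no more tightly than these intervals. Group means ran from 2.03 at 18 µg of NRCWE-001 on day 28 to 2.69 at 54 µg of NRCWE-001 on day 1. The reference RNA's own F7 signal was well above background on 59 of 69 arrays, which makes the denominator of this ratio dim.

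Across the 69 lungs, F7 and F10 had the highest correlation of the 28 pairs of members, with r = 0.737 and Spearman's rho 0.724 as a description. It was 0.688 without the 2 lungs farthest from the F7 median, 0.712 on day 1, 0.749 on day 28, 0.705 after each slide's mean was removed, 0.776 after each group's mean was removed and 0.743 without the 4 arrays that stood apart. In the authors' table it was 0.718. The mean of the macrophage markers correlated with F7 at 0.851 and with F10 at 0.631, though single markers ranged for F7 from 0.121 (Csf1r) to 0.707 (Marco) and for F10 from -0.01 (Csf1r) to 0.586 (Marco). The mean of the neutrophil markers correlated at 0.577 with F7 and 0.620 with F10. Single neutrophil markers ranged for F7 from 0.423 (Csf3r) to 0.663 (Retnlg) and for F10 from 0.437 (S100a8) to 0.714 (Retnlg). These lungs share slides and hybridisation quality as well as cell content, and the correlations do not tell these apart. By Pearson's r over the 69 lungs, the genes most like F7 were Itgax (0.790), Tbxas1 (0.784) and Wfdc21 (0.777), and those most like F10 were Ccl17 (0.816), Dok2 (0.809) and Slc26a4 (0.807). With slide means removed, the values were 0.813, 0.767 and 0.780 for F7 and 0.784, 0.808 and 0.747 for F10.

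**Figure D3:**
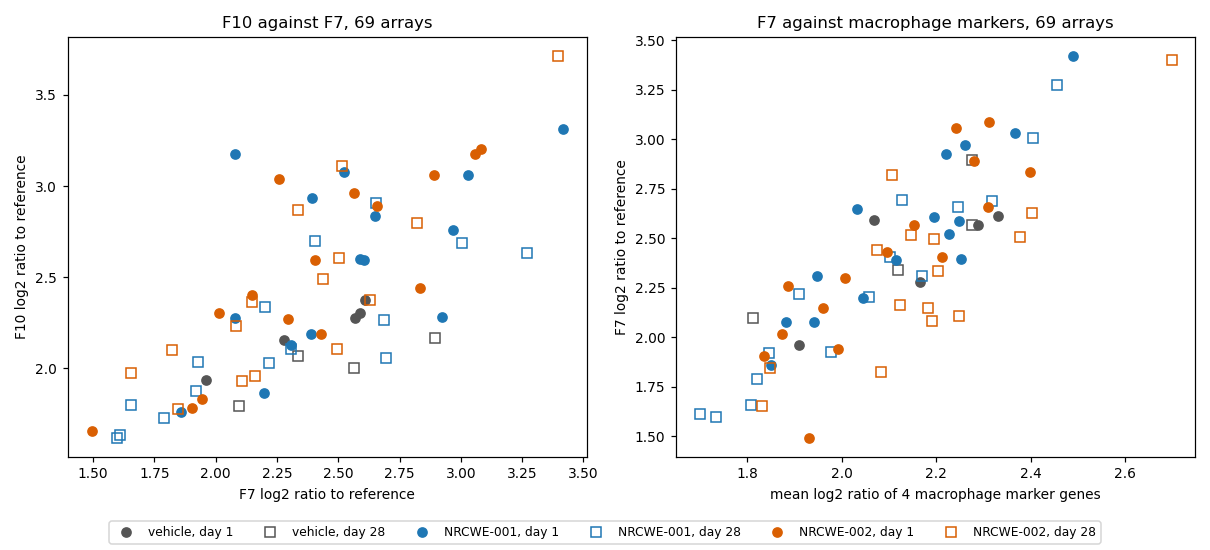
Left, log2 ratio of F10 (y axis) against that of F7 (x axis), and right, F7 (y axis) against the mean of 4 macrophage markers (x axis), 1 point per lung coloured by treatment, filled on day 1 and open on day 28. The 69 lungs form 1 elongated cloud in each panel (r = 0.737 and 0.851), with lungs of all treatments along its length.

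F3, the cell-surface starter of coagulation, differed from vehicle by -0.42 to 0.30 with no value at an unadjusted p under 0.05. On day 1 the 18 µg lungs were at 0.40, 0.44, 0.74, 0.79 and 0.80 with NRCWE-001 and at -0.11, -0.01, 0.16, 0.34 and 0.35 with NRCWE-002. These groups did not overlap, as was so for 1.96% of all genes in that comparison, where 6.55% had an unadjusted p under 0.05. The difference between particles was -0.49 (0.714-fold, unadjusted p = 0.0227, limma adjusted p = 0.689), and it was -0.30 with slide as a fixed term and -0.55 without the arrays that stood apart. Vehicle lungs averaged 0.34 ± 0.20, between the particles. On day 28 the mean over doses was 0.30 lower with NRCWE-002 than with NRCWE-001 (unadjusted p = 0.0145, limma adjusted p = 0.119). That difference was -0.04 without the 4 arrays that stood apart, whose 3 NRCWE-002 values on day 28 were -0.55, -0.92 and -0.81 beside 0.27 to 0.77 in the other lungs of their groups. The 2 F3 probes correlated at 0.957 over the lungs. The genes most like F3 were Ints8 (0.876), Med7 (0.846) and Rab18 (0.844), with values of 0.586, 0.367 and 0.603 after each slide's mean was removed. Differences between slides held 74.9% of the F3 variation within groups, the highest share of the 8 members. Part of such a share arises without any slide effect.

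Neither anticoagulant member reached an unadjusted p under 0.05 against vehicle by the median of its probes. Tfpi, the inhibitor of the tissue factor complex and of active factor X, differed by -0.02 to 0.18, with 95% intervals from -0.21 to 0.37. Its 3 probes, against 2 transcripts, did not run together (r between -0.13 and 0.18), so their median follows no single probe. The brightest Tfpi probe had a median intensity of 884, beside 104 and 131.5 for the others, and was at 1.36 ± 0.52 with vehicle on day 1 and 1.02 ± 0.35 on day 28. By that probe alone, the differences from vehicle ran from -0.39 (18 µg of NRCWE-001, day 1) to 0.47 (18 µg of NRCWE-002, day 28). The latter had an unadjusted p of 0.032 and a limma adjusted p of 0.795. Over the doses on day 28 the probe was 0.26 higher with NRCWE-002 than with NRCWE-001 (unadjusted p = 0.0285, limma adjusted p = 0.175).

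Thbd, the endothelial receptor for thrombin, differed from vehicle by -0.32 to 0.24. The lowest group mean was 4.12 ± 0.37 with 162 µg of NRCWE-001 on day 1, beside 4.44 ± 0.22 with vehicle (difference -0.32, unadjusted p = 0.099, limma adjusted p = 0.85). The highest was 4.84 ± 0.25 with 18 µg of the same particle on day 28. Thbd correlated with Plat at 0.549 over the 69 lungs, at -0.03 on day 1 and 0.68 on day 28, and with Plau at -0.493. After each slide's mean was removed, these were 0.270 with Plat and -0.641 with Plau over the 69 lungs. Genes most like Thbd were Lims2 (0.801), Vegfc (0.797) and Ehd4 (0.776), and those most like Tfpi were Pou3f2 (0.765), Mei1 (0.722) and Zfp36l3 (0.721). After each slide's mean was removed, the values were 0.842, 0.796 and 0.721 for Thbd and 0.583, 0.314 and 0.224 for Tfpi.

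Plat, the plasminogen activator of vessel walls, was at -0.79, -0.58, -0.51, -0.47 and -0.45 in day 1 vehicle lungs (-0.56 ± 0.14). With 162 µg of NRCWE-002 it was at -0.42, -0.37, -0.33, -0.20 and -0.18 (-0.30 ± 0.11), with no overlap. The difference was 0.26 (1.2-fold, unadjusted p = 0.0331, limma adjusted p = 0.483), and 0.23 with slide as a fixed term. With 162 µg of NRCWE-001 the lungs were at -0.41 ± 0.03, a difference of 0.15, and also did not overlap vehicle, though the lowest exposed lung was at -0.448 and the highest vehicle lung at -0.452. Among all genes, 3.54% had every exposed lung above vehicle at 162 µg of NRCWE-002 and 1.98% at 162 µg of NRCWE-001. On day 28, vehicle lungs were at -0.22 ± 0.27, 0.34 above day 1 vehicle (1.26-fold, unadjusted p = 0.0094, limma adjusted p = 0.837), and no slide held vehicle of both days. That difference was 0.21 without replicate 3 of the day 28 vehicle group and 0.19 with slide as a fixed term. The genes most like Plat were Tpm4 (0.741), Dhh (0.656) and Vegfc (0.637), with values of 0.526, 0.575 and 0.331 after slide means were removed.

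Plau, the urokinase that activates plasminogen at cell surfaces, was dim on these arrays: 1 of its 2 probes was well above background on 8 of 69 arrays, and the probes correlated at 0.173. On day 28 the vehicle lungs were at -1.16, -1.08, -0.84 and -0.71 (-0.95 ± 0.21) and the 162 µg NRCWE-001 lungs at -0.68 ± 0.13, overlapping. The difference was 0.27 (1.2-fold, unadjusted p = 0.0138, limma adjusted p = 0.408). It was 0.07 by the dim probe and 0.46 by the other, 0.11 with slide as a fixed term and -0.01 within the 1 slide that held both groups. The genes most like Plau were Msr1 (0.671), Lrrc25 (0.658) and Rgs16 (0.658), with values of 0.708, 0.680 and 0.642 after slide means were removed.

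Plaur, the receptor that gathers urokinase on leukocytes and epithelium, had the lowest adjusted p of the members between the particles. In vehicle lungs it was at -0.15, -0.09, 0.09, 0.11 and 0.17 on day 1 (0.03 ± 0.14) and at 0.06, 0.08, 0.19 and 0.50 on day 28 (0.21 ± 0.21). On day 1 the 162 µg lungs were at 0.17 to 0.37 with NRCWE-001 (0.25 ± 0.09) and at 0.17, 0.25, 0.27, 0.31 and 0.70 with NRCWE-002 (0.34 ± 0.21). In each of these groups every lung lay above the range of the same day 1 vehicle lungs. The lowest exposed lung was at 0.166, just above the highest vehicle lung at 0.165. Among all genes, every exposed lung was above vehicle for 1.98% at 162 µg of NRCWE-001 and 3.54% at 162 µg of NRCWE-002. The differences of 0.22 and 0.31 had unadjusted p above 0.05, and with slide as a fixed term they were 0.25 and 0.16.

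On day 28, Plaur with NRCWE-001 was at 0.43, 0.51, 0.62, 0.78 and 0.91 at 18 µg, at 0.25 to 0.61 at 54 µg, and at 0.22, 0.23, 0.69, 1.09 and 1.2 at 162 µg. All 15 lungs were above the vehicle mean of 0.21, and the highest vehicle lung, at 0.50, overlapped each group. The differences from vehicle were 0.44 at 18 µg (1.36-fold, unadjusted p = 0.0154, limma adjusted p = 0.438), 0.19 at 54 µg and 0.48 at 162 µg (1.39-fold, unadjusted p = 0.0092, limma adjusted p = 0.354). With slide as a fixed term they were 0.50 at 18 µg (limma adjusted p = 0.0902) and 0.61 at 162 µg (limma adjusted p = 0.582). Over the 3 doses the mean difference was 0.37 (unadjusted p = 0.0154, limma adjusted p = 0.660), where 6.46% of all genes had an unadjusted p under 0.05. With NRCWE-002 the day 28 lungs were at 0.06, 0.18, 0.29, 0.46 and 0.90 at 18 µg, at -0.16, -0.12, -0.03, -0.01 and 0.66 at 54 µg, and at -0.05, 0.04, 0.30, 0.41 and 1.17 at 162 µg. The highest lung of each NRCWE-002 group was the array that stood apart.

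The mean over doses on day 28 put Plaur 0.30 lower with NRCWE-002 than with NRCWE-001 (SE 0.10, 0.810-fold with a 95% interval of 0.709 to 0.926, unadjusted p = 0.0026, limma adjusted p = 0.0520), which lies just above the threshold of 0.05. At the single doses the differences were -0.27, -0.33 and -0.31. This was the lowest adjusted p of 64 comparisons of members between the particles, of which 0 passed and 6 had an unadjusted p under 0.05 (9.38%, beside 8.58% of all genes' values). In the same comparison 4.75% of all genes passed the adjusted threshold and 22.2% had an unadjusted p under 0.05. Without the 4 arrays that stood apart the Plaur difference was -0.46 (limma adjusted p = 0.000839), an alternative chosen after seeing the data, and by the authors' table it was -0.32 (limma adjusted p = 0.0377). With slide as a fixed term it was -0.37 (limma adjusted p = 0.334) and as a random block -0.32 (limma adjusted p = 0.169), and over all alternative settings the adjusted p ran from 0.000686 to 0.334. On the 2 slides that held both particles on day 28 it was -0.42 and -0.11. Of the platelet markers, 4 of 4 were higher with NRCWE-002 in the same comparison (median 0.26), 2 of them called, while 52.4% of all genes were higher. Markers of lung tissue (5 of 5, median 0.08), cardiac muscle (4 of 4, median 0.90) and liver (3 of 3, median 0.17) were also all higher, with 0 called. The other marker lists held markers in both directions. The mean ratio of the platelet markers was 0.94 to 1.1 with 18 µg, 0.84 to 1.00 with 54 µg and 0.37 to 1.21 with 162 µg of NRCWE-001, and 0.58 to 1.31, 1.06 to 1.72 and 1.11 to 1.40 with NRCWE-002. The part of any of these tissues or cells in the Plaur value was not tested. The 2 Plaur probes correlated at 0.898, and the genes most like Plaur were Arid5a (0.798), Ppp1r18 (0.751) and Cndp2 (0.737). Those gene correlations were 0.743, 0.640 and 0.573 after slide means were removed.

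**Figure D4:**
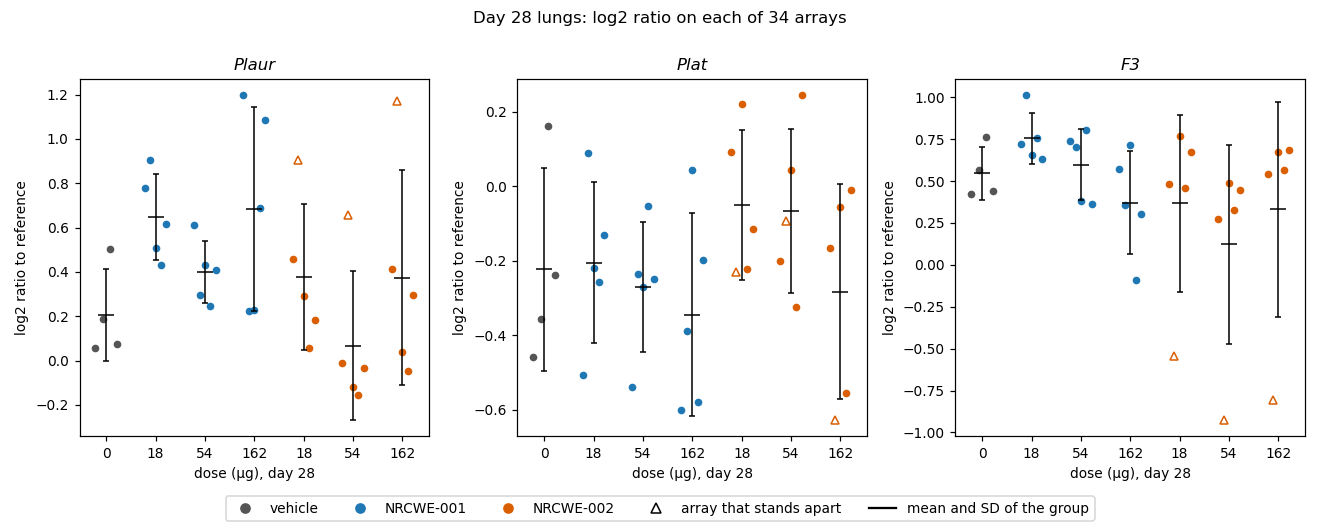
Day 28 log2 ratios of Plaur, Plat and F3 (y axes) by dose in µg (x axes), 1 point per lung coloured by particle, with bars for the group mean and SD and triangles for the arrays that stood apart. In the NRCWE-002 groups the triangles are the highest lungs for Plaur (0.90, 0.66 and 1.17) and the lowest for F3 (-0.55, -0.92 and -0.81).

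**Figure D5:**
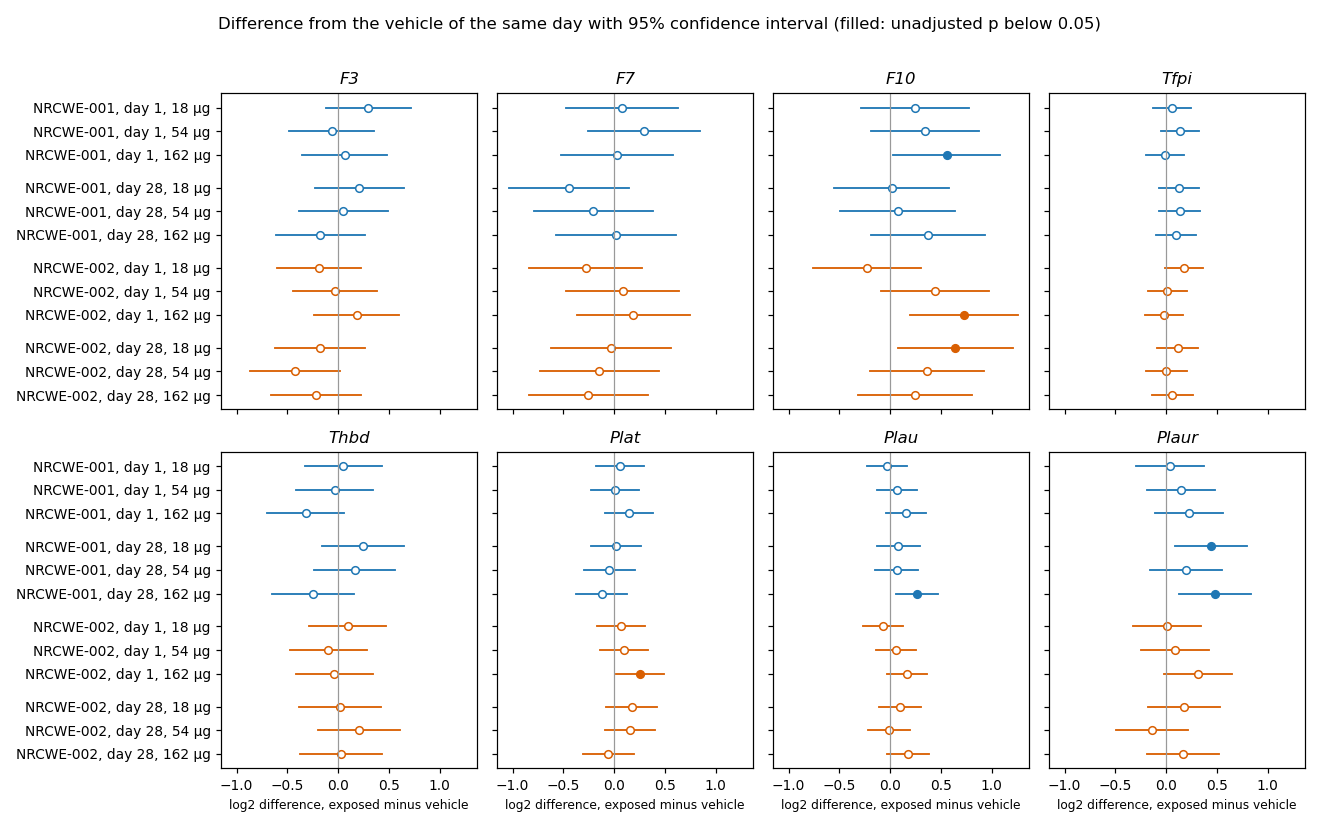
Log2 difference from the same-day vehicle (x axis) with its 95% interval from limma, for each of the 8 genes at each particle, dose and day (y axis), filled where the unadjusted p was below 0.05. The values run from -0.45 (F7) to 0.72 (F10), and most intervals include 0.

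Of the other particle comparisons past an unadjusted 0.05, those of F3 at 18 µg on day 1 and over the doses on day 28 are given above. F10 at 18 µg on day 28 was 0.63 higher with NRCWE-002 (limma adjusted p = 0.467), 0.57 without the array that stood apart, and from 0.36 without replicate 1 to 0.85 without replicate 3 of the NRCWE-002 group. F3 at 54 µg on day 28 was at -0.48 (limma adjusted p = 0.541), and at -0.22 without that slide's array. Plat over the doses on day 28 was 0.14 higher with NRCWE-002 (limma adjusted p = 0.215), 0.19 without the arrays that stood apart and -0.09 when each array was centred on its median. Among all genes, 9.07% at 18 µg and 7.95% at 54 µg on day 28 had an unadjusted p under 0.05. At the adjusted threshold the shares were 0.119% and 0.0283% there, 0.13% at 54 µg on day 1, 0.125% over the doses on day 1, and 0 at the other single doses. Between the days, 0 of 24 comparisons of the members passed and 1 had an unadjusted p under 0.05, the vehicle difference of Plat. The share of all genes' values at that level was 5.6%, and 5.77% in the vehicle comparison. Ranked by group mean, the gaps between neighbouring groups were below the SD of single lungs within groups for all 13 gaps of every member. Ranking many means makes such gaps small, so this is a description and does not test whether groups differ.

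The wider pathway was read from a list of 40 other genes, of which 38 were tested (F13b and Tfpi2 had no probe above the filter): 15 of 16 other coagulation factors, 8 of 9 other anticoagulants, 4 receptors and 11 other fibrinolysis genes. Against vehicle, 1 of the 38 passed the adjusted threshold at any dose. This was Serpind1, heparin cofactor II, a thrombin inhibitor, which rose with 162 µg of NRCWE-002 on day 1. Its vehicle lungs were at 0.91, 0.92, 0.95, 1.01 and 1.29 and its exposed lungs at 1.37, 1.75, 1.82, 1.89 and 2.05. These did not overlap, and every exposed lung was above vehicle for 3.54% of all genes in that comparison. The difference was 0.76 (SE 0.18, limma adjusted p = 0.0285), and it passed with 2 of the 10 mice left out in turn and not with the other 8 (adjusted p from 0.00824 to 0.113). At 54 and 162 µg of NRCWE-001 and 54 µg of NRCWE-002 on day 1 Serpind1 was 0.55, 0.54 and 0.55 above vehicle, with limma adjusted p of 0.694, 0.234 and 0.427. The liver markers Alb, Apoa1 and Ttr had a mean ratio of 0.07 to 1.18 over these exposed lungs and 0.09 to 0.22 over the vehicle lungs, and the exposed lung with the highest mean was also the highest for Serpind1. In an alternative chosen after seeing the data, the 3 of 69 lungs with a liver marker mean above 1 were left out. The Serpind1 difference was then 0.69 (limma adjusted p = 0.0763). The F10 difference in the same comparison was 0.73 (limma adjusted p = 0.395), beside 0.72 and 0.267 with all lungs. The part of liver markers in the F10 value was not tested. Of the 3 lungs left out, only replicate 3 of the exposed group was in this comparison, with F10 at 2.89 beside a group mean of 2.93. Without those lungs 2 pathway values passed, Fgg, the fibrinogen gamma chain, at 162 µg of NRCWE-002 on day 1 (0.90, limma adjusted p = 0.0165, beside 0.98 and 0.177 with all lungs) and Serpinb2 at 18 µg of NRCWE-001 on day 1 (0.91, limma adjusted p = 0.0111, beside 0.73 and 0.218), both named after their values were seen. Of the 456 values of the 38 genes against vehicle, 48 had an unadjusted p under 0.05 (10.5%, with 34 higher), beside 5.98% of all genes' values. At 54 µg of NRCWE-002 on day 28 there were 10 of the 48, all higher, F2, Fgb and Serpinc1 among them (26.3% of the 38 genes, beside 4.95% of all genes). The liver marker mean in that group was 0.80 ± 1.14 (0.05 to 2.77) beside 0.18 ± 0.11 (0.04 to 0.29) with vehicle, with 3 of 3 markers higher and 0 called. Without the 3 lungs that group had 3 such values (7.89% of the 38 genes, beside 4.69% of all genes), and the whole list had 45 of 456 (9.87%, with 29 higher) beside 5.83% of all genes' values. Beyond these counts, the part of liver markers in the pathway values was not tested. Serpind1 correlated with F10 at 0.660 over the 69 lungs.

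Between the particles on day 28, over the doses, 1 of the 38 genes was lower with NRCWE-002 and 0 higher. This was F2r, a thrombin receptor, at -0.31 (limma adjusted p = 0.0253), named after its value was seen. In that comparison 4.75% of all genes passed, and 4 of the 38 were higher and 2 lower at an unadjusted p under 0.05. Without the 4 arrays that stood apart it was at -0.19 (limma adjusted p = 0.115), and with slide as a fixed term at -0.23 (limma adjusted p = 0.808). Over the alternative settings the adjusted p ran from 0.00106 to 0.808.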

How the data were processed

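Lung RNA of 69 mice was hybridised with a common reference to Agilent arrays. The authors deposited scanner output with spot intensities (Agilent Feature Extraction 11.0.1.1) and a table of LOWESS-normalised log2 ratios, whose base and direction fit the scanner values (r 0.987 to 0.995 per array). The 8 members, gene lists and named-gene rules were chosen with earlier results of these data known. Intensities were corrected with normexp (offset 50) and loess, control and outlier spots were left out, and probes well above background in the lung channel on at least 4 of 69 arrays were kept (36469 of 41174). The median over a gene's probes gave 17639 genes. Transcript identifiers were matched to RefSeq symbols for 27479 probes. A single limma 3.58.1 fit (R 4.3.3) of 14 group means gave differences, with Benjamini-Hochberg adjustment over all genes and a threshold of 0.05. The authors' log2 table, the measure by which the genes were to be followed, is given as an alternative, since the scanner files let background and outlier spots be handled here. Its column medians were -0.0586 to -0.00264. Named genes are the 8 members, pathway genes that passed against vehicle, and the 3 genes with the highest Pearson r to each member. Scripts were tested on simulated data. Replicates are separate mice, and the number of arrays limits precision. The main fit held no slide term, although arrays of a slide were alike (consensus correlation 0.469 with slide as a random block). Differences between slides held 40.7% (Plau) to 74.9% (F3) of the within-group sum of squares of a member. With 18 slides for 69 arrays, part of such a share arises without any slide effect. Alternatives covered normalization, background, probe filter and summary, slide, scan day, array weights, samples in the fit, moderation and single arrays. 1 further gene of the pathway list is not reported here.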

Additional observations from a re-analysis of the deposited data

Results flagged for a closer look

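In 9 of 112 groups of a gene's values (8.04%), 1 lung lay far from the other lungs of its group; chance alone gives about 1 in 20. F3 was low on the 3 NRCWE-002 day 28 arrays of 1 slide that stood apart from the rest. Its value was -0.546 at 18 µg (other lungs 0.46 to 0.77), -0.925 at 54 µg (0.27 to 0.49) and -0.807 at 162 µg (0.54 to 0.68). Plaur was high on the 54 µg array of the same slide, at 0.657, beside -0.156 to -0.00855 in the other lungs. Thbd was at 3.99 on the day 1 array of NRCWE-001 18 µg that stood apart, beside 4.52 to 4.69.

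Of the arrays that did not stand apart, Plaur was at 0.698 in replicate 4 of NRCWE-002 162 µg on day 1, beside 0.166 to 0.306. Plau was at -0.722 in replicate 2 of NRCWE-002 18 µg on day 1, beside -1.09 to -0.984. Tfpi was at 0.136 in replicate 1 of vehicle on day 28, beside -0.00114 to 0.0132, and at 0.569 in replicate 2 of NRCWE-001 162 µg on day 28, beside -0.0543 to 0.0692. In 0 of 96 pairs of groups did all lungs of one group move opposite to all lungs of the other.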

How the results depend on the processing

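The count of members called was 0 in each family of comparisons as reported. Between particles it was 1 with the authors' table, a stricter filter on dim probes, array weights, and, chosen after seeing the data, without the arrays that stood apart and with the brightest probe, and 2 with median centring. It was 0 to 1 with single arrays left out. That gene was Plaur over the doses on day 28 in each case, joined by F3 (-0.53, limma adjusted p = 0.00619, and up to 0.988 in other settings) under median centring. Plaur passed when any of 7 single arrays was left out: replicate 2 of NRCWE-002 at each dose, replicate 5 of NRCWE-002 162 µg, replicates 2 and 3 of NRCWE-001 162 µg, or replicate 4 of NRCWE-001 18 µg. With each array left out in turn it ranged from -0.37 to -0.26, with limma adjusted p from 0.0167 to 0.107. Array weights called 3 dose contrasts, F10 at 162 µg of NRCWE-002 on day 1 (0.72, limma adjusted p = 0.0317, up to 0.463 in other settings) and Plau (0.38, limma adjusted p = 0.0159, up to 0.999) and Plaur (0.56, limma adjusted p = 0.00617, up to 0.749) at 162 µg of NRCWE-001 on day 28, and 3 values of the test over doses. Scan day as a fixed term called 1 value of that test, Plaur with NRCWE-001 on day 28 (limma adjusted p = 0.0399). The causes were not tested. The mean over doses against vehicle and the comparisons between days stayed at 0 called. Of the alternatives' 3432 values, 10 were newly called and 296 not called changed sign. Over all genes, calls at 162 µg of NRCWE-002 on day 1 numbered 105 as reported, 40 with median centring and 1259 with array weights; for NRCWE-001 they numbered 102, 37 and 1066. Calls between particles over the doses on day 28 numbered 837 as reported, 4 with slide as a fixed term and 4511 with median centring. Median centring moved the median of all genes by over 0.1 at 162 µg between the particles on day 28, to -0.118, and in the day comparison of NRCWE-002 at 162 µg, to -0.128. Serpind1 passed in 15 of 16 settings, not with the scanner software's processed signals (0.45, limma adjusted p = 0.853), and F2r passed in 10 of 16. Without the lungs with high liver markers, an alternative outside these 16, Serpind1 did not pass either (limma adjusted p = 0.0763). No paired analysis was possible because replicate numbers follow the order of the samples and the labels tie no mice together. In the lung channel 1 Plau probe was well above background on 8 of 69 arrays, and in the reference channel F7 was on 59 and 1 Tfpi probe on 44.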
